A study of Mus musculus with 2 samples.

Results

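The mitochondrial carriers of the SLC25 family were examined in total RNA of mouse erythroid progenitor cells labelled CFU-Ery, the dividing precursors of red blood cells. Members were all genes annotated protein-coding whose symbol starts with Slc25a, without the mitoferrins Slc25a37 and Slc25a28, and 45 of the 43346 Ensembl genes in the gene tables met this rule. The cells were taken as primary cells from adult C57BL/6J males at 5 to 6 weeks of age, by isolation of progenitors from bone marrow, with no genetic change or treatment named. There was 1 group of 2 libraries, called biological replicates 1 and 2, prepared from 1 ng of RNA per library, with spike-ins added and fragments of 150 to 400 nt. A single donor record stands behind both biosamples, so their spread may be purely technical, and whether animals were pooled is not stated.

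SLC25 proteins are small carriers that sit mostly in the inner mitochondrial membrane and exchange nucleotides, phosphate, amino acids, carboxylic acids and cofactors between the cytosol and the matrix. They are made from nuclear genes and are inserted by the TIM22 complex with the help of small chaperones of the intermembrane space. In red cell precursors the family is best known for haem synthesis, which starts in the matrix from glycine and succinyl-CoA: Slc25a38 is a carrier needed for glycine supply, and its loss causes a sideroblastic anaemia in people.

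The total expected count, an estimate of the reads of a gene that need not be whole, was 143491647 in replicate 1 and 110634458 in replicate 2. Nuclear protein-coding genes held 4717790 and 4093202 of these, and the 45 members held 10572 and 8637. Levels are given as the deposited TPM, a relative abundance corrected for transcript length, of which genes of the mitochondrial genome took 89.5% in replicate 1 and 86.7% in replicate 2. One deposited TPM equals 43.1 TPM in replicate 1 and 37.0 in replicate 2 when nuclear protein-coding genes alone are scaled to sum to 1000000, called rescaled TPM below. All 8 erythroid markers stood at 1 TPM or more in both libraries, from Gata1, the lowest by mean, at 5.94 and 5.68 TPM to Hbb-bs at 2287 and 2623. Granulocyte and monocyte markers did so for 9 of 10, with a summed level of 547.6 and 741.7 TPM, macrophage markers for 4 of 8 (10.9 and 14.2 TPM), B lymphoid markers for 3 of 5 (15.5 and 17.7 TPM), T and NK markers for 1 of 5 (2.67 and 3.39 TPM, with Cd8a at 0) and megakaryocyte markers for 0 of 5 (2.08 and 2.64 TPM). The erythroid markers summed to 3671 and 4283 TPM. Of all nuclear protein-coding genes 12.6% stood at 1 TPM or more in both libraries. The granulocyte marker S100a9, at 172.8 and 249.5 TPM, stood above Slc4a1, the highest listed erythroid marker other than globins, at 123.9 and 148.6. The part of cells other than erythroid ones in any carrier's level was not tested. In bulk RNA fewer cells with a transcript and less of it per cell cannot be told apart.

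Few carriers were abundant. Slc25a38, Slc25a51, Slc25a5, Slc25a39, Slc25a3 and Slc25a21 reached 1 TPM in both libraries, which is 6 of 45 members, a share close to the 12.6% of all nuclear protein-coding genes. On the rescaled values 29 of 45 members reached 1 in both libraries (44.6% of nuclear protein-coding genes), and 25 of 45 had at least 10 expected counts in both (42.9%). The family as a whole held 0.181% ± 0.00608 (SD, n = 2) of the nuclear protein-coding TPM, with sums of 42.98 TPM in replicate 1 and 47.79 in replicate 2. The 3 highest members by mean TPM took 51.7% and 48.2% of the family's TPM in replicates 1 and 2, and the 6 highest 80.5% ± 1.26 (SD, n = 2). The median member stood at 0.17 TPM in replicate 1 and 0.10 in replicate 2, against 0.01 and 0.02 over all nuclear protein-coding genes.

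**Figure D1:**
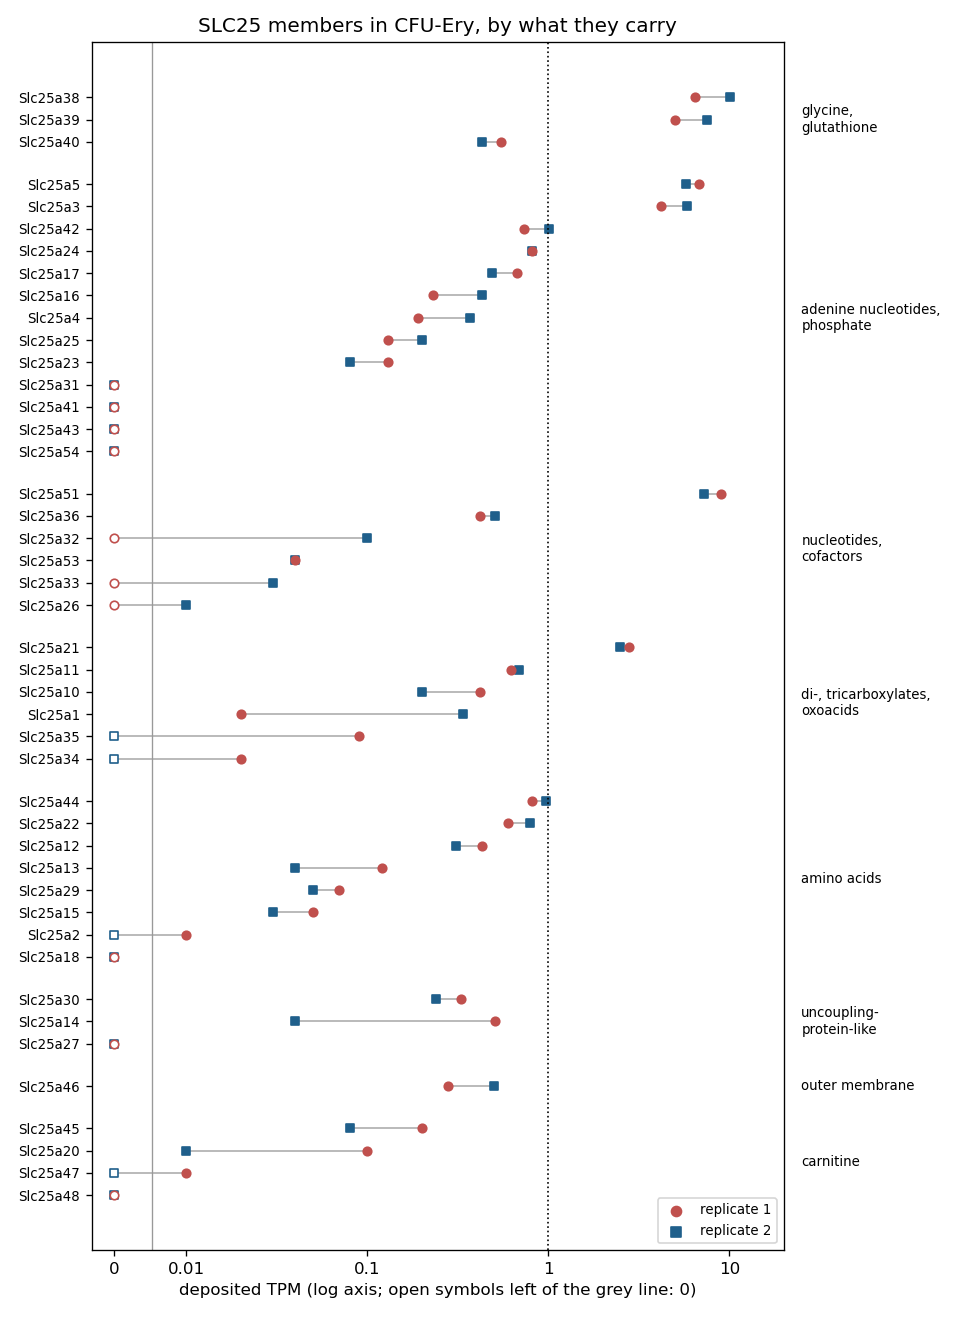
Deposited TPM (log axis) of 44 members in replicate 1 (circles) and replicate 2 (squares), in blocks by assigned class of carrier. Open symbols stand for 0 and the dotted line for 1 TPM. Only 6 members lie right of the line in both libraries. With 0 counts in both there are 7, beside 9033 of 21461 nuclear protein-coding genes.

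The same 6 members led the family in either library and by TPM, posterior mean TPM, FPKM, expected count, rescaled TPM and TPM of protein-coding transcripts alone, but their order among themselves changed. Replicate 1 was led by Slc25a51 and replicate 2 by Slc25a38. Below them came 6 members with a mean of 0.5 to under 1 TPM and 14 at 0.1 to under 0.5. Another 12 stood above 0 but under 0.1, and 7 had 0 counts in both libraries. Of all 21461 nuclear protein-coding genes, 9033 had 0 counts in both. Members were also grouped by an assigned class of cargo or kind of protein. The 3 glycine, glutathione and haem-linked carriers took 28.0% and 37.6% of the family's TPM. The 13 adenine nucleotide and phosphate carriers took 32.3% and 31.4%. The 7 nucleotide and cofactor carriers took 22.3% and 16.8%, and the 6 carriers of dicarboxylates, tricarboxylates and oxoacids 9.21% and 7.78%. The 8 carriers of aspartate, glutamate and other amino acids took 4.86% and 4.58%. The remaining 8 members, which are carnitine-related, uncoupling-protein-like or outer membrane proteins, were each under 2% as a class.

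**Figure D2:**
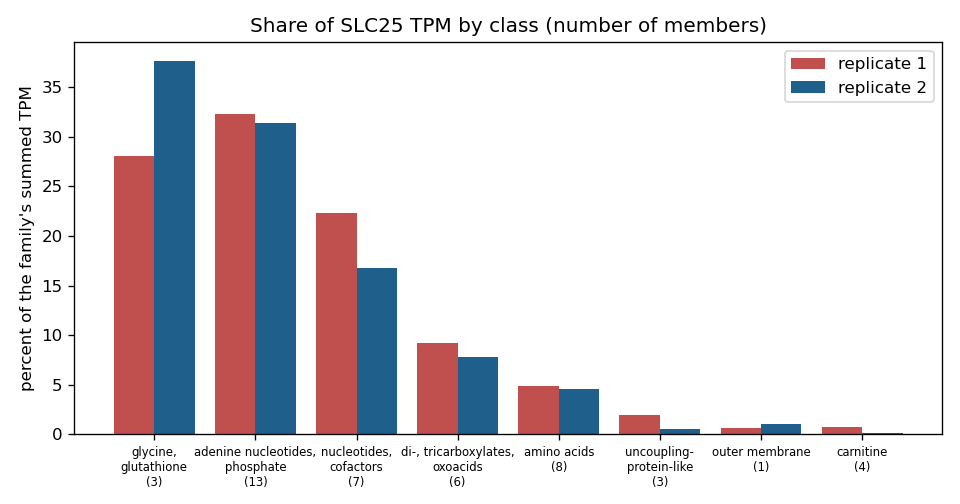
Percent of the family's summed TPM held by each class of carrier in replicate 1 and replicate 2, with the number of members in brackets. The glycine and glutathione carriers and the adenine nucleotide and phosphate carriers each hold between 28.0% and 37.6%, although the first class has 3 members and the second 13.

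Slc25a38 (ENSMUSG00000032519.7, chr9:120110374-120124504, plus strand, GRCm38), the carrier linked to glycine import for haem, had the highest mean TPM of the family. It stood at 6.46 TPM in replicate 1 and 10.04 in replicate 2, a mean of 8.25 ± 2.53 (SD, n = 2), from 1148 and 1374 expected counts. In rescaled TPM its mean was 325 ± 65.6, just under the 327 of Slc25a51, and it ranked 370 among the 21461 nuclear protein-coding genes by mean TPM. Slc25a39 (ENSMUSG00000018677.5, chr11:102402985-102407946, minus strand), a carrier that brings glutathione into mitochondria, stood at 5.03 and 7.51 TPM, from 591 and 621 counts. Both genes were higher in replicate 2 than in replicate 1. Slc25a40, the closest relative of Slc25a39 and also a glutathione carrier, stood at 0.55 and 0.43 TPM, lower in replicate 2.

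Within each library Slc25a39 exceeded Slc25a40 by a log2 ratio of 3.19 (95% counting interval 2.95 to 3.44) and 4.13 (3.83 to 4.44), a mean of 3.66 ± 0.66 (SD, n = 2). Slc25a38 exceeded Slc25a39 by a log2 ratio of 0.36 (0.22 to 0.51) and 0.42 (0.28 to 0.56), with a mean of 0.39 ± 0.04. These intervals are exact binomial ones on expected counts and cover counting error only. They leave out how reads were divided over transcripts. No molecular identifiers are named for the reads, so duplicated reads may make the intervals too narrow. Of the 7 pairs measured without a bound, among 9 compared, the ratio of Slc25a38 to Slc25a39 had the smallest SD, which rests on 2 values. Each gene's own level differed between the libraries by more than counting error. So did 61.2% of all genes that averaged 20 or more expected counts and had reads in both libraries. Whether the 2 genes vary together was not tested.

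Of the energy carriers, Slc25a5 (ENSMUSG00000016319.3, chrX:36795651-36798807, plus strand), the ADP/ATP carrier of dividing cells, stood at 6.79 and 5.78 TPM, a mean of 6.29 ± 0.714 (SD, n = 2), from 989 and 649 counts. Slc25a4, the ADP/ATP carrier best known from heart and muscle, stood at 0.19 and 0.37 TPM from 45 and 69 counts, and Slc25a31, the form of male germ cells, had 0 counts in both. Slc25a5 therefore exceeded Slc25a4 in both libraries, by a log2 ratio of 5.16 (95% counting interval 4.73 to 5.62) and 3.97 (3.61 to 4.35), and the intervals of the libraries did not overlap. The mean log2 ratio was 4.56 ± 0.84 (SD, n = 2), which is 23.6-fold. The first 90 coding bases of both genes are shown to let a reader see how far reads of one can be told from the other, with the 24 bases that differ in capitals (transcripts Slc25a5-201, chrX:36795731-36795820, plus strand, and Slc25a4-201, chr8:46210833-46210922, minus strand, GRCm38):
Slc25a5: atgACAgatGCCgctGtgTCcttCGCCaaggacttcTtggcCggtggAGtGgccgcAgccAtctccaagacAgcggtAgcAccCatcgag
Slc25a4: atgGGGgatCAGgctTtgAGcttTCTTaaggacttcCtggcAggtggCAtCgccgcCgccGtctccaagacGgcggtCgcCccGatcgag
The 2 coding sequences, 897 bases each, were identical at 77.5% of aligned positions and shared no stretch of 25 bases. Slc25a5 did share 53.6% of its 25-base stretches with 14 other genes, of which the processed pseudogene Gm5560 held the most at 33.9%. Reads of Slc25a5 and its pseudogenes may thus be split by the counting, and its level carries that uncertainty.

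Slc25a3 (ENSMUSG00000061904.8, chr10:91116574-91124059, minus strand) carries phosphate for ATP synthesis and is known for a pair of mutually exclusive exons, one used in most tissues and one in heart and muscle. The gene stood at 4.19 and 5.85 TPM, from 788 and 717 counts. Set against Slc25a5 it was lower in replicate 1, with a log2 ratio of -0.70 (-0.83 to -0.56), while the interval held 0 in replicate 2, at 0.02 (-0.14 to 0.17), so that no order of these genes held across the libraries. The transcript Slc25a3-201 took 537 and 569 counts, or 2.75 and 3.74 TPM, and the alternative coding transcript Slc25a3-206 took 0 in both. Their exon 3 differs, and both versions are shown because this choice separates the transcripts. The upstream version, used by Slc25a3-206, lies at chr10:91122207-91122331 and the downstream version, used by Slc25a3-201, at chr10:91121922-91122043, both on the minus strand of GRCm38, with capitals marking bases that do not match in an alignment of the pair:
Upstream exon 3: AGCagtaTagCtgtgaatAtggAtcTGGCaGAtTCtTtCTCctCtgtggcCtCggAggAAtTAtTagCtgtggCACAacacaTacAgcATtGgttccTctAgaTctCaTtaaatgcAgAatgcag
Downstream exon 3: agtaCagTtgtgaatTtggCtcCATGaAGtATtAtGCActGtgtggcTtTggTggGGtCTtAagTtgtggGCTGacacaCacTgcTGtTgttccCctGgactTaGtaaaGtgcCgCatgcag
The exons were identical in 80 of 126 aligned columns (63.5%) and shared no stretch of 25 bases. Slc25a3-202, which also holds the upstream exon, had 0 counts in both libraries, and Slc25a3-208, a retained-intron transcript that holds both exons, had 133 and 46.7. The tables give no reads per exon, so the number of reads that decided between the versions is unknown.

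Among the carriers of ATP-Mg and phosphate, which adjust the matrix adenine nucleotide pool in response to calcium, Slc25a24 led at 0.81 TPM in both libraries. Its relative Slc25a23 stood at 0.13 and 0.08 TPM, from 55 and 8 counts. In replicate 2 the transcript Slc25a23-202, of 736 bases, held 85.7% of its TPM on 4.21 counts. Slc25a24 was higher by a log2 ratio of 2.64 (2.23 to 3.08) and 3.34 (2.34 to 4.57), a mean of 2.99 ± 0.50 (SD, n = 2). These intervals do not cover how reads were divided over transcripts. Slc25a25 stood at 0.13 and 0.20 TPM, and Slc25a41 and Slc25a54 had 0 counts in both. Slc25a24 was thus the highest of this subgroup in both libraries, and Slc25a23 and Slc25a25 stood level in replicate 1. Slc25a42, a coenzyme A carrier, stood at 0.73 and 1.01 TPM, Slc25a17 of peroxisomes at 0.67 and 0.49, and Slc25a16 at 0.23 and 0.43. Slc25a43 had 0 counts in both.

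Slc25a51 (ENSMUSG00000045973.14, chr4:45395923-45408766, minus strand), the carrier that brings NAD+ into mitochondria, stood at 8.96 and 7.23 TPM, a mean of 8.10 ± 1.22 (SD, n = 2). It had the most reads of the family, 3700 and 2628 expected counts, on a main transcript of 4433 bases. It was the only one of the 7 nucleotide and cofactor carriers to reach 1 TPM in both libraries, beside 12.6% of nuclear protein-coding genes. Slc25a36, a pyrimidine nucleotide carrier, stood at 0.42 and 0.51 TPM from 188 and 153 counts. Its relative Slc25a33 had 0 and 5 counts, so Slc25a36 was at least 32.4-fold higher in replicate 1, where a floor of 3 counts stands for the 0, and 17.0-fold higher in replicate 2 (log2 4.09, 2.83 to 5.73). Slc25a26, the S-adenosylmethionine carrier, had 0 and 2 counts. Slc25a32, linked to folate and FAD transport, had 0 counts in replicate 1 and 28 in replicate 2, and Slc25a53 had 6 and 10.

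Slc25a21 (ENSMUSG00000035472.9, chr12:56712634-57197472, minus strand), an oxodicarboxylate carrier of lysine and tryptophan breakdown, stood at 2.79 and 2.49 TPM from 708 and 396 counts. It led the carboxylate carriers and was the lowest of the 6 members above 1 TPM. Its body, introns included, overlaps Pax9 on the opposite strand, to which 59.1 and 34.0 counts were given. Since the use of strand is not given and overlap of exons was not examined, how many reads the 2 genes could share is unknown. The bodies of Slc25a11, Slc25a18, Slc25a25, Slc25a26 and Slc25a36 also overlap a measured gene on the opposite strand. The body of Slc25a3 overlaps the snoRNA gene Gm24119 on the same strand, to which 51 and 35 counts were given. Slc25a11, the oxoglutarate and malate exchanger of the malate-aspartate shuttle, stood at 0.62 and 0.69 TPM, and Slc25a10, the dicarboxylate carrier, at 0.42 and 0.20. Their log2 ratio was 0.56 (0.12 to 1.01) in replicate 1 and 1.79 (1.16 to 2.47) in replicate 2, a mean of 1.17 ± 0.87 (SD, n = 2), a spread almost as wide as the difference. Slc25a1, the citrate carrier, rested on 5 and 19 counts (0.02 and 0.34 TPM). Slc25a35 and Slc25a34 had 7.13 and 8 counts in replicate 1 and 0 in replicate 2.

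None of the 8 members classed as carriers of aspartate, glutamate and other amino acids, which leaves out Slc25a38, reached 1 TPM in both libraries. Of all nuclear protein-coding genes 12.6% did, so in a class of 8 this count is close to the general share. Slc25a44, which carries branched-chain amino acids, stood at 0.81 and 0.97 TPM from 351 and 331 counts, the highest of the class on this estimate. By the deposited posterior mean TPM, however, the glutamate carrier Slc25a22 stood at 1.14 and 1.56, past 1 TPM in both libraries and above Slc25a44. On the main estimate Slc25a22 stood at 0.60 and 0.79 TPM, while its relative Slc25a18 had 0 counts in both, so Slc25a22 was at least 32.6-fold higher in replicate 1 and at least 33.4-fold higher in replicate 2. The aspartate-glutamate carriers, the other arm of the malate-aspartate shuttle, were both low. Slc25a12 stood at 0.43 and 0.31 TPM from 240 and 183 counts, and Slc25a13 at 0.12 and 0.04 TPM from 37 and 11 counts. Slc25a13 was lower than Slc25a12 by a log2 ratio of -1.84 (-2.38 to -1.34) and -2.95 (-3.98 to -2.08), a mean of -2.40 ± 0.79 (SD, n = 2). The basic amino acid carrier Slc25a29 had 17 and 9 counts, and the ornithine carriers Slc25a15 and Slc25a2 had 22 and 11 and 2 and 0.

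**Figure D3:**
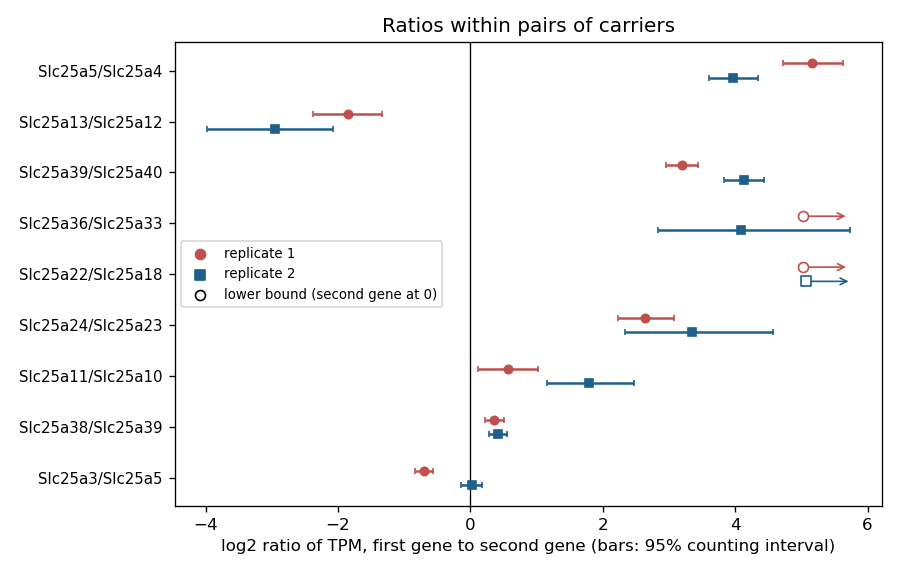
Log2 ratio of TPM within 9 pairs of carriers in replicate 1 (circles) and replicate 2 (squares), with 95% counting intervals, and open symbols with arrows for lower bounds where the second gene had 0 counts. Every pair lies on the same side of 0 in both libraries except Slc25a3 and Slc25a5, at -0.70 and 0.02.

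The remaining members were low throughout. Slc25a46, a carrier-like protein of the outer membrane known for a role in mitochondrial shape, stood at 0.28 and 0.50 TPM. Slc25a30 stood at 0.33 and 0.24 TPM, and Slc25a14 at 0.51 and 0.04, both relatives of the uncoupling proteins. Among the carnitine-related members, Slc25a45 had 48 and 15 counts, Slc25a20, the carnitine-acylcarnitine carrier of fatty acid oxidation, 22 and 2, and Slc25a47 1 and 0. The 7 members with 0 counts in both libraries, beside 9033 of 21461 nuclear protein-coding genes, were Slc25a18, Slc25a27, Slc25a31, Slc25a41, Slc25a43, Slc25a48 and Slc25a54. A count of 0 allows up to 3 counts, which at these genes' lengths is 0.00701 to 0.0214 TPM in replicate 1 and 0.00897 to 0.0274 in replicate 2.

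Between the libraries, members were compared on log2(TPM + 1), which understates differences of low genes, after centring on the median of all genes that averaged 20 or more expected counts. None of the 26 members with that many counts differed over 2-fold, beside 0.628% of all such genes. On rescaled TPM 4 members did, Slc25a10, Slc25a13, Slc25a14 and Slc25a45, beside 17.8% of genes. Each of the 4 was higher in replicate 1 and had 23.0 to 45.5 mean counts. Among members with at least 100 mean counts, those furthest apart on log2(TPM + 1) were Slc25a38 (-0.52 for replicate 1 against replicate 2), Slc25a39 (-0.45), Slc25a3 (-0.35), Slc25a51 (0.32) and Slc25a5 (0.25). On this scale, the added 1 favours abundant genes. On rescaled TPM, Slc25a16 (-0.71), Slc25a46 (-0.66), Slc25a12 (0.57) and Slc25a17 (0.57) were further apart than Slc25a38 (-0.49). The leading members split on log2(TPM + 1), with Slc25a38, Slc25a39 and Slc25a3 higher in replicate 2 and Slc25a51 and Slc25a5 higher in replicate 1. Counting intervals of the centred TPM ratio held 0 for 7 of the 26 members, lay above 0 (higher in replicate 1) for 12 and below 0 for 7. Over all genes with that many counts, and reads in both libraries, the intervals left out 0 for 61.2%, with 30.3% higher in replicate 1 and 30.9% higher in replicate 2. With 1 group no test of a condition was possible.

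**Figure D4:**
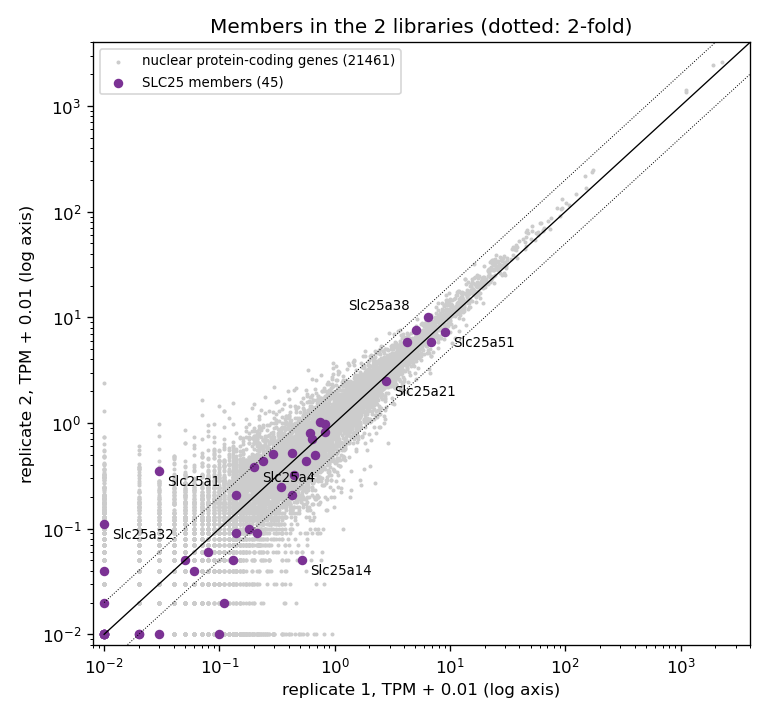
TPM + 0.01 in replicate 1 against replicate 2 (log axes) for 21461 nuclear protein-coding genes (grey) and the 45 members (purple), with dotted lines at a 2-fold difference. The leading members lie inside the dotted lines, and Slc25a14, Slc25a1 and Slc25a32, at 12 to 23 mean counts, are among those outside.

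The transcript tables show which annotated form carried each gene's TPM. The main transcript of a gene was the one with the highest share of its TPM, as a mean of the 2 libraries. Among the 26 members that averaged 20 or more expected counts, this mean share was at least 50% in 22. The same held for 81.8% of nuclear protein-coding genes with as many counts. The share need not reach 50% in each library. Among the 22, the main transcripts of Slc25a13 and Slc25a14 stood at 100% and 0%, and that of Slc25a23 at 100% and 14.3%. The main transcript was of a non-coding type in 2 members, Slc25a14 and Slc25a42, beside 13.1% of such genes. In both members a coding transcript led in replicate 2. For Slc25a14 the non-coding and the coding transcript tied at a mean of 50%, and the order of their identifiers decided. For Slc25a13 all TPM of replicate 1 lay on a transcript with no match in the annotation used here, while in replicate 2 the coding transcript Slc25a13-203 led, with 10.3 counts. The median share of TPM on transcripts annotated protein-coding was 85.1% for the members and 100% for all such genes, counting transcripts without a match as not coding. The same transcript led in both libraries in 20 of 26 members, a share close to the 74.6% of all such genes.

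Slc25a5 was carried almost wholly by its coding transcript Slc25a5-201, at 99.6% and 95.8% of the gene's TPM. Slc25a38-201 held 73.5% and 71.1%, and 2 processed transcripts of the same gene held most of the rest. Slc25a51-201 held 65.5% and 77.3%, with 34.5% and 20.8% on the processed transcript Slc25a51-204. For Slc25a39 the short coding transcript Slc25a39-205, of 728 bases, held 64.3% and 72.7% of the TPM but 253 of 591 and 332 of 621 counts, so the gene's TPM rests on how reads were divided between short and long forms. For Slc25a21 the coding transcript Slc25a21-201 held 68.5% and 43.5%.

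Slc25a42-205, a retained-intron transcript, held 44.4% and 38.2% of the TPM of Slc25a42. In replicate 2 the coding transcript Slc25a42-201 held more, 40.1%, and coding transcripts together held 42.5% and 52.5%. Slc25a14 was carried by 40 counts on a processed transcript in replicate 1 and by 6 counts on a coding transcript in replicate 2, so its values in the libraries do not describe the same RNA. Counting protein-coding transcripts alone, the leading members stood at 6.21 TPM (Slc25a38), 6.15 (Slc25a5), 5.90 (Slc25a39), 5.80 (Slc25a51), 3.25 (Slc25a3) and 1.76 (Slc25a21) as means of the libraries, a measure chosen after the data were seen. Slc25a51 moved from the second to the fourth place by this measure.

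**Figure D5:**
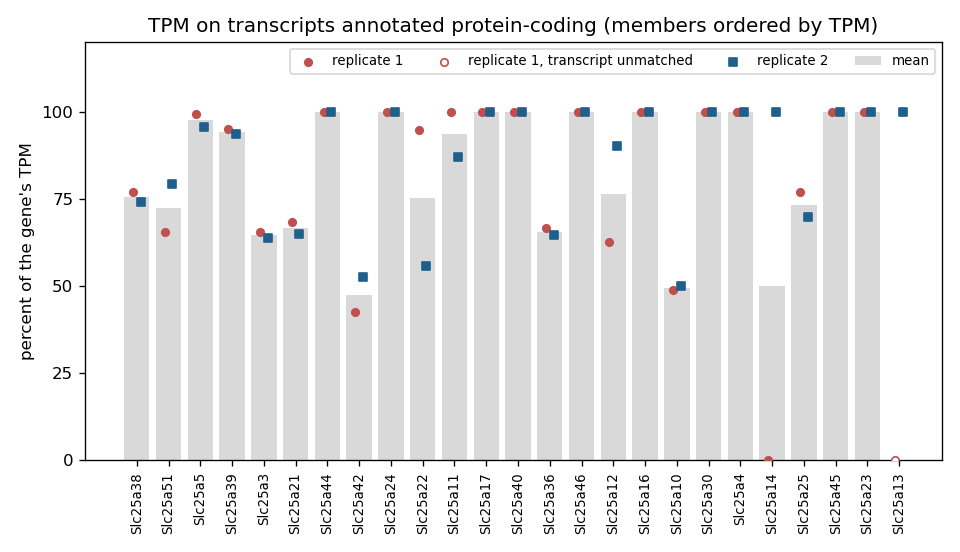
Percent of each gene's TPM on transcripts annotated protein-coding, for 25 members that averaged 20 or more expected counts, ordered by mean TPM: bars give the mean, circles replicate 1 and squares replicate 2. Slc25a5 is above 95% in both libraries and Slc25a3 at 65.6% and 63.7%, while Slc25a14 stands at 0% in replicate 1 and 100% in replicate 2. The open circle marks Slc25a13 in replicate 1, whose transcript has no match, so that its coding share there is unknown and no bar is drawn.

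The members lie on 19 chromosomes, and 4 pairs lie within 100 kb of each other. Slc25a24 and Slc25a54 lie 6461 bases apart on chromosome 3, Slc25a23 and Slc25a41 2056 bases apart on chromosome 17, and Slc25a5 and Slc25a43 18448 bases apart on chromosome X. In these 3 pairs 1 gene had reads in both libraries and its neighbour, Slc25a54, Slc25a41 or Slc25a43, had 0 counts in both. So did 9033 of 21461 nuclear protein-coding genes. Slc25a29 and Slc25a47, 162 bases apart on chromosome 12, were both under 0.1 TPM.

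Start-site sequences of 300 bases (250 before and 50 after the start, RefSeq on GRCm38.p6) matched 35 of the 45 members by symbol, with 45 entries because some genes have several starts. They were searched on both strands for hexamers bound by GATA factors (AGATAA and AGATAG, or the same with T as the first letter), for the CACCC-like CCNCNCCC, for the NRF1 core CGCANGCG and for the ETS-like CCGGAAG known from GABP. A GATA hexamer stood in 9 of 45 member entries (20.0%) against 29.8% of all 32851 entries, and CCNCNCCC in 33 (73.3%) against 49.5%. CGCANGCG stood in 2 (4.44%) against 8.21%, and CCGGAAG in 7 (15.6%) against 8.86%. A match is a run of letters and no evidence of binding, and overlapping matches were merged in what is shown. The windows of Slc25a38, the highest member by mean TPM, and of Slc25a3, whose window held 3 of the 4 kinds of match, are given with all matches in capitals (chr9:120110132-120110431, plus strand, and chr10:91123918-91124217, minus strand):
Slc25a38: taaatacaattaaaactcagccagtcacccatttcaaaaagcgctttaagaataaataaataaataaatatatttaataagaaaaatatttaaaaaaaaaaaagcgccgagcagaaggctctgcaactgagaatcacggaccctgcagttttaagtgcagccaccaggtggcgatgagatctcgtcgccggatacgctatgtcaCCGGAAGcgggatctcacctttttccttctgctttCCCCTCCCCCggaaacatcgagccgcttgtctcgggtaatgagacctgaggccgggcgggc
Slc25a3: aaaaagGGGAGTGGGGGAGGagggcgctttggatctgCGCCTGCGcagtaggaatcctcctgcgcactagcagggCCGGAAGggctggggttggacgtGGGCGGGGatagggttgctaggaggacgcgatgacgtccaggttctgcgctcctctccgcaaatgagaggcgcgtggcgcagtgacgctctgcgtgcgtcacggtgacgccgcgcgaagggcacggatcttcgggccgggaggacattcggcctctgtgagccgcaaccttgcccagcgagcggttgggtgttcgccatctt
The Slc25a38 window held CCGGAAG once, CCNCNCCC at 2 overlapping positions and no GATA hexamer, and the Slc25a3 window held CGCANGCG and CCGGAAG once each and CCNCNCCC at 3 positions.

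Relatives outside the Slc25a symbols and partners of the carriers set the scale. Ucp2, an uncoupling protein of the same superfamily, stood at 17.93 and 20.69 TPM, above every member, and Ucp1 and Ucp3 had 0 counts. The mitoferrin Slc25a37, the iron importer left out by the rule, stood at 64.63 and 65.11 TPM, more than the 45 members together, and Slc25a28 at 0.16 and 0.44. Mtch2, a carrier-like protein of the outer membrane, stood at 1.32 and 1.75 TPM, and its relative Mtch1 at 0.67 and 0.63. Of 16 genes of the import route for carriers, 2 reached 1 TPM in both libraries, a share close to the 12.6% of nuclear protein-coding genes. These were Tomm22 at 2.30 and 1.92 and Tomm6 at 1.16 and 1.24. Timm8b stood at 2.28 and 0.80 TPM, and Agk, a subunit of the TIM22 complex, had 1 and 2 counts.

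Of 18 other transporters of mitochondrial membranes 8 reached 1 TPM in both libraries, beside 12.6% of nuclear protein-coding genes. They were led by Tmem14c, needed for porphyrin import, at 17.64 and 16.29 TPM. Abcb10, an ABC transporter of erythroid mitochondria, stood at 11.25 and 12.88 TPM and Vdac2, an outer membrane pore, at 2.90 and 3.82. Of 27 enzymes that use or supply the carried compounds 11 reached 1 TPM in both libraries, beside the same 12.6%. They were led by Alas2, the erythroid enzyme that joins glycine to succinyl-CoA, at 61.95 and 77.81 TPM. The subunits of glutamate-cysteine ligase, which makes the glutathione precursor, followed, Gclm at 6.48 and 8.50 TPM and Gclc at 5.94 and 7.26. The urea cycle enzymes Cps1 and Otc, of which Otc acts on ornithine, had 0 counts in both libraries.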

How the data were processed

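Total RNA of CFU-Ery cells was measured in 2 libraries, with 1 gene table and 1 transcript table each. Per the file headers, the authors' tables hold expected counts, which are read estimates. Per the file headers they also hold TPM, once by maximum likelihood and once as a posterior mean, and FPKM, which corrects for length and depth. A further deposited column, the isoform percent, says how a gene's TPM divides over its transcripts. Quantification used mm10 with GENCODE M4, as the deposited file description states. The tool that made the estimates, its version and whether strand was used: not given in the sources used here.

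Gene annotation (coordinates 1-based) was GENCODE M21 for GRCm38, matched by Ensembl identifier without version for 42462 of 43346 genes. Entries that name no gene held 0% and 7.23e-06% of counts and were left out. The members, the gene lists and the alternatives were chosen with earlier results of these data known, and nothing is supported by that choice. Every member but 1, which is counted but not reported here by itself, is named, with values in both libraries for the 15 highest, the glycine and glutathione carriers, the members of 9 pairs and those furthest apart; of other lists the 3 highest and those at 0.

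Detection was set at 1 TPM in both libraries. Rescaled TPM sums to 1000000 over nuclear protein-coding genes. Ratios carry 95% exact Clopper-Pearson intervals, and 3 counts per library stood in for a 0. Expected counts were whole within 0.01 in both libraries for 41 of 45 members. They were rounded for edgeR 4.0.16 (TMM factors) and DESeq2 1.42.0 (size factors) under R 4.3.3, used for scaling alone. The call between libraries and the intervals were tried on simulated data with counting error alone. Changes were planted there only in genes well above 1 TPM, so the call on low members was not tested. Work was done in Python 3.11.15 with Biopython 1.88, scipy 1.17.1, pandas 2.3.3, numpy 2.4.6 and matplotlib 3.10.9. Alternatives were the TPM estimate, unit, scale, thresholds, filters and each library left out.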

Additional observations from a re-analysis of the deposited data

How the results depend on the processing

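With 2 libraries of 1 group no test was possible, and the low share of nuclear RNA limits every member under about 10 counts. No paired analysis was possible because there is 1 group only. The count of members detected at 1 TPM in both libraries, 6, became 29 on rescaled TPM, 25 with at least 10 expected counts, 11 at 0.5 TPM and 7 by posterior mean TPM, with Slc25a22 added, and it ranged from 6 to 7 with 1 library left out. Over all nuclear protein-coding genes the share was 12.6% at 1 TPM, 44.6% on rescaled TPM and 42.9% with at least 10 expected counts. It was not computed at 0.5 TPM or by posterior mean TPM. The family's share of nuclear protein-coding TPM, 0.181%, was 0.218% in expected counts. The median member, 0.135 TPM, was 0.285 by posterior mean TPM and 0.512 among members with at least 20 counts. Members over 2-fold apart numbered 0 of 26 on log2(TPM + 1), beside 0.628% of genes. With 0.1 added in place of 1 they numbered 1 (10.4% of genes), and on rescaled TPM 4 (17.8%). In expected counts they numbered 6 with TMM (18.2%) and 6 with DESeq2 size factors (18.2%). In expected counts, which are not corrected for length, the log2 ratio was -3.38 for Slc25a13 to Slc25a12, 2.13 for Slc25a39 to Slc25a40, 5.45 for Slc25a36 to Slc25a33, 4.64 for Slc25a22 to Slc25a18, 3.90 for Slc25a24 to Slc25a23 and 1.05 for Slc25a38 to Slc25a39. By posterior mean TPM it was 2.33 for Slc25a24 to Slc25a23 and 0.33 for Slc25a38 to Slc25a39. The ratio of Slc25a3 to Slc25a5, -0.34 on average, reversed to 0.017 with replicate 1 left out, and was -0.70 with replicate 2 left out. All other pairs kept their sign under the alternatives run. Members whose main transcript carried at least 50% as a mean of the libraries, 22, became 11 at 75% and 14 (of 16) among members with at least 100 counts. The share of all nuclear protein-coding genes at these alternative settings was not computed. In 7 cases a single member's level moved by more than its SD: Slc25a22 rose from 0.695 to 1.35 TPM by posterior mean, Slc25a24 from 0.81 to 0.825, and Slc25a51, Slc25a3, Slc25a21, Slc25a42 and Slc25a22 fell with coding transcripts alone. Apart from length scaling, fewer genes and fewer transcripts, which act by construction, the cause was not tested.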
